A study of Mus musculus with 5 samples.

Results

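The loci of 8 inhibitory receptor genes, *Pdcd1*, *Lag3*, *Tigit*, *Cd160*, *Cd244*, *Btla*, *Ctla4* and *Havcr2*, were examined for chromatin accessibility (ChrAcc) in naïve CD8+ T cells with or without the transcription factors Tcf1 and Lef1. A peak belonged to a locus where its summit lay in the gene body or within 50 kb on either side of it, in the gencode annotation of the mm9 mouse genome. By this rule 88 of the 56641 deposited peaks fell in the 8 loci, 48 of 31116 in the WT list and 40 of 25525 in the dKO list. Peaks at least 4 times over their local background, with p under 1e-05 and q under 0.05, are called ChrAcc sites. The loci held 43 of the 28472 ChrAcc sites of the WT list and 39 of the 24363 of the dKO list.

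WT mice were *hCD2-Cre*+ and *Rosa26*GFP with intact *Tcf7* and *Lef1* (+/+ for both genes), and dKO mice carried the same Cre and reporter together with floxed alleles of both genes (*Tcf7* fl/fl, *Lef1* fl/fl). All mice were adult C57BL/6 animals of both sexes, and GFP+ TCRβ+ CD62L-high CD44-low-to-medium CD8+ T cells were sorted from their spleens. *hCD2-Cre* acts mainly in mature T cells and does not excise in every cell, so the GFP reporter served to mark the cells to be sorted. DNase-seq, which reads the small DNA pieces cut out of open chromatin by DNase I, was done on 3 WT and 2 dKO replicates, and replicates were pooled within genotype by the authors before peak calling. The 2 lists therefore have no spread between replicates, no test between genotypes was possible from them, and no interval given here covers such spread. The intervals of ratios between the lists cover counting error only. Those of shares of sites, and of the median over sites, treat sites as independent draws. Sites of the same locus may not be independent, which these intervals do not allow for. The paper tested genotypes with edgeR on counts per library, which were not analysed here. It reports increased accessibility in dKO at an intron of *Ctla4* and links *Havcr2* to decreased sites. The positions of those sites were not compared with the ones below.

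Inhibitory receptors restrain T cells after activation. The PD-1, CTLA-4, BTLA and TIGIT proteins (from *Pdcd1*, *Ctla4*, *Btla* and *Tigit*) bind ligands on other cells and counter signals from the T cell receptor or from costimulatory receptors, and Lag3 is a relative of CD4 that binds MHC class II. Tim-3 (from *Havcr2*), CD160 and 2B4 (from *Cd244*) accompany them on chronically stimulated T cells, although 2B4 and CD160 can also activate. Tcf1 and Lef1 are closely related HMG-box proteins that bind the core ATCAAAG or close variants of it, and Tcf1 is known for keeping T cells in naïve, memory and stem-like states.

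The pools differed in depth. The WT list rested on 83923734 fragments and the dKO list on 62242963, a ratio of 1.35. Among marker genes of the sorted cell, all 8 T cell genes had a WT site within 1 kb of a transcription start site (TSS) and 7 of 8 had a dKO site, *Cd3d* being without one. No B cell gene (0 of 3) or NK cell gene (0 of 2) had such a site in either list. Of 3 myeloid genes *Itgam* had one in the WT list only. Sites in the body of the deleted genes numbered 3 in each list for *Tcf7*, and 9 in the WT and 8 in the dKO list for *Lef1*, which does not check the deletion.

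The sequences around 7 summits of the loci are shown first, because the results below turn on these sites. Each is read from the mm9 plus strand, with 50 bases on either side of the summit. Capitals mark motif letters that were searched for on both strands. For Tcf/Lef proteins these were the core ATCAAAG and the close variant TTCAAAG. For Runx proteins the letters were TGTGGT, and for AP-1 they were TGANTCA. For CTCF an 11-letter core of its motif was searched, which starts with CC, has CT in its middle and ends in TGG, with 2 free bases in each gap. The first is the only shared site with at least 2 times more signal in WT, the next is the *Cd160* promoter, and the other 5 were found in 1 list only.

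Lag3 locus, 26.4 kb downstream of the TSS, shared (chr6:124835303-124835403): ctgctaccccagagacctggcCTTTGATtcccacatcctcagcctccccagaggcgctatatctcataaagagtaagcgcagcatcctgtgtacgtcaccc
Cd160 locus, 65 bp upstream, shared (chr3:96618459-96618559): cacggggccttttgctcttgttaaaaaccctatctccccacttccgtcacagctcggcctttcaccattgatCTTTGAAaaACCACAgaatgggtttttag
Havcr2 locus, 23.6 kb upstream, WT list only (chr11:46244832-46244932): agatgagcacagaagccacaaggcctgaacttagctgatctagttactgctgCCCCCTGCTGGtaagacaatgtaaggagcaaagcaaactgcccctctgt
Ctla4 locus, 26.1 kb upstream, WT list only (chr1:60939753-60939853): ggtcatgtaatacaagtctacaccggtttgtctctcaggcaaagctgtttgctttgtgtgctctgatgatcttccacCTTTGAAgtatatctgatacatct
Ctla4 locus, 52.3 kb downstream of the TSS, WT list only (chr1:61018089-61018189): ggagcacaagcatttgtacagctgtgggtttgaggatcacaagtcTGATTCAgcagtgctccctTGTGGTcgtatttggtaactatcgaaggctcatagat
Ctla4 locus, 2.77 kb downstream of the TSS in intron 1, dKO list only (chr1:60968587-60968687): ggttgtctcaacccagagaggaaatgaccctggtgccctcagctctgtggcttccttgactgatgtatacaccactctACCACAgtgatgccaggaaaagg
Cd244 locus, 70.2 kb downstream of the TSS, dKO list only (chr1:173559451-173559551): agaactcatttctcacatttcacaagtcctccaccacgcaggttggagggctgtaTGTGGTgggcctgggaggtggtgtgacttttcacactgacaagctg

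Most of the accessible landscape of the inhibitory receptor loci was found in both genotypes. Joined across the lists, the sites made 52 distinct positions, of which 30 were shared (an overlap of at least 1 bp), 13 were in the WT list only and 9 in the dKO list only. The sites found in the WT list only were 30.2% of the loci's WT sites (95% Wilson interval 18.6% to 45.1%), against 27.6% of all WT sites. Those found in the dKO list only were 23.1% of the loci's dKO sites (12.6% to 38.3%), against 14.4% of all dKO sites. Both intervals include the share of the whole list.

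The loci differed from each other in how the 2 lists divided. At the criteria used here, *Pdcd1* (4 sites) and *Cd160* (2 sites) had shared sites alone, and *Lag3* had 5 shared sites and 1 in the WT list only. *Havcr2* had 7 WT and 3 dKO sites, 4 of them in the WT list only and none in the dKO list only. *Tigit* ran the other way with 4 WT and 8 dKO sites, 4 of them in the dKO list only and none in the WT list only. *Ctla4* (10 WT and 7 dKO sites, 5 and 2 of them in 1 list only), *Btla* (6 and 5 sites, 3 and 2) and *Cd244* (4 and 5 sites, 0 and 1) lay between. The greater depth of the WT pool runs with the surplus at *Havcr2* and against the one at *Tigit*, and its part in them was not tested. With so few sites per locus, no difference between the loci was tested.

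**Figure D1:**
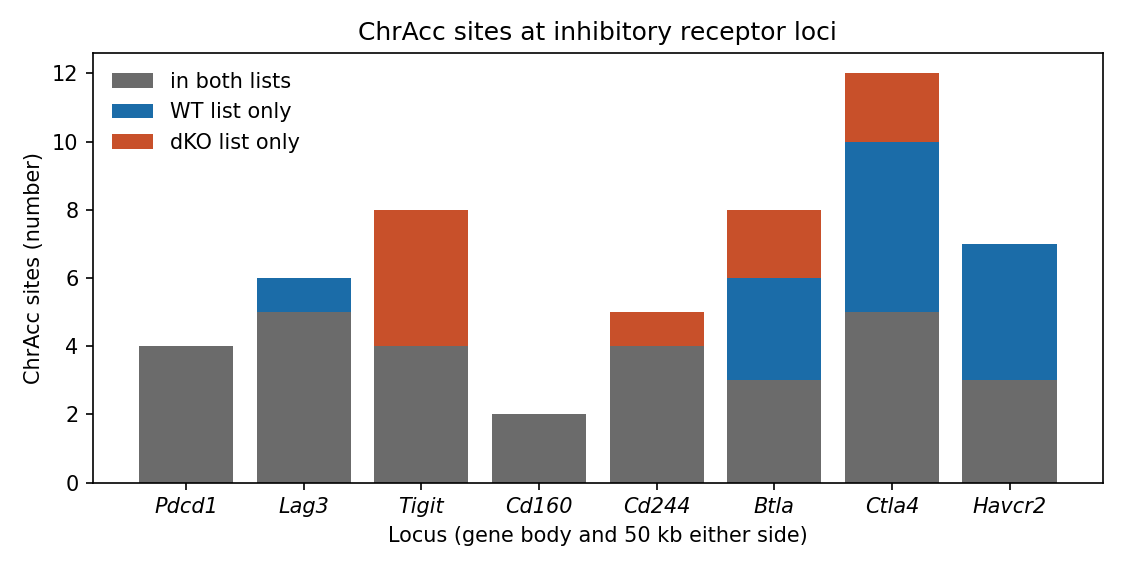
Number of ChrAcc sites (y axis) at each locus (x axis), stacked by whether a site was in both lists, the WT list only or the dKO list only. *Havcr2* has 4 sites in the WT list only and *Tigit* 4 in the dKO list only, while *Pdcd1* and *Cd160* have none of either kind.

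The sites lay mostly outside the genes. Placed against the main transcript of each gene, 29 of the 52 positions were upstream, 17 downstream, 5 in an intron and 1 in an exon, exon 6 of *Btla*. The nearest TSS belonged to another gene at 19 of them. Sites of the loci were of middling strength, since the median percentile by fold enrichment among the sites of the same list (100 the highest) was 47.2 in WT and 37.7 in dKO. Only 3 WT sites and 1 dKO site ranked in the highest 10% of their list, 6.98% and 2.56% of the loci's sites. Their median GC content within 100 bp of the summit was 49.3% in WT and 48.3% in dKO, below the 53.2% of either whole list.

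**Figure D2:**
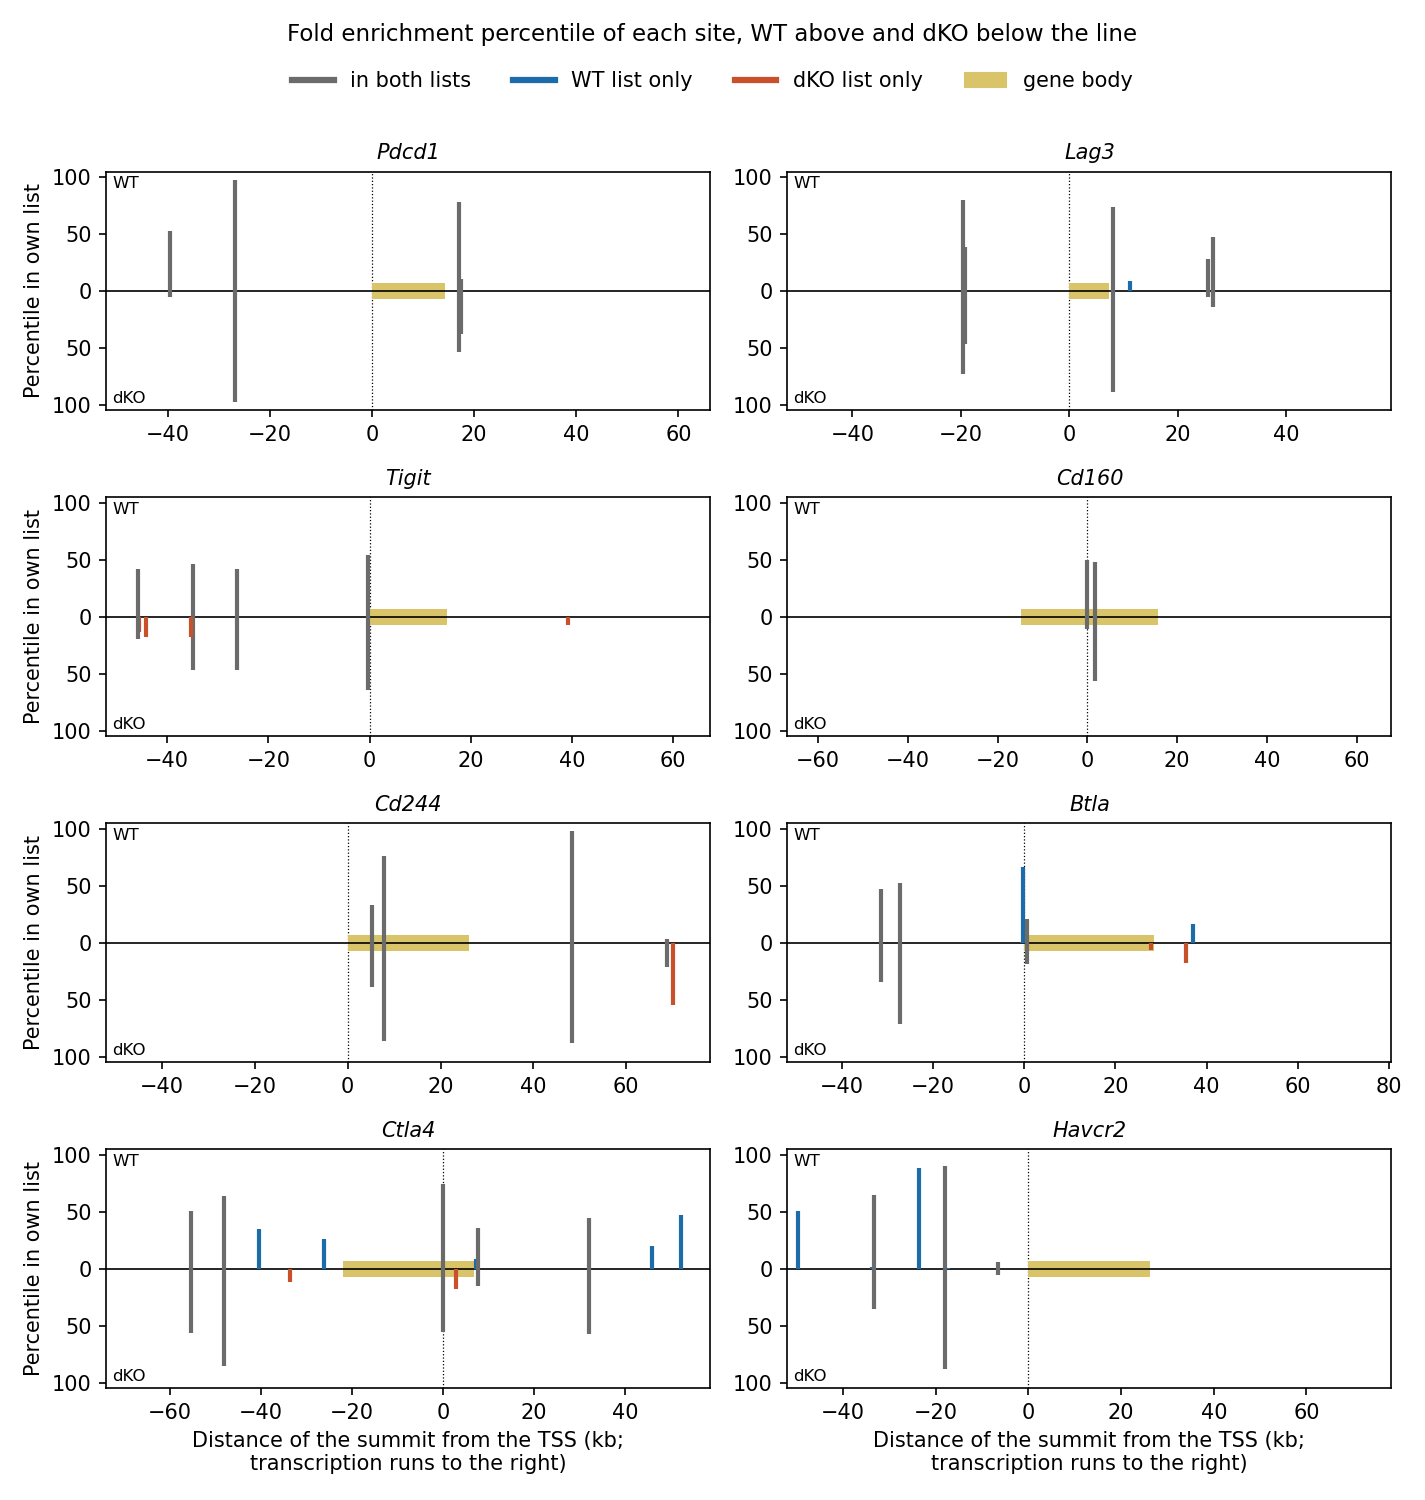
Fold enrichment percentile of each ChrAcc site within its own list (y axis), WT above and dKO below the line, against the distance of its summit from the TSS in kb (x axis), in 1 panel per locus with the gene body as a bar. The shared site 26.8 kb upstream of *Pdcd1* stands at percentile 97.7 in both lists, and all 7 *Havcr2* sites lie upstream of the gene.

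The genes' own promoters were accessible at 4 of the 8, *Tigit*, *Cd160*, *Btla* and *Ctla4*, in either list. Across the 22208 protein-coding genes, 45.0% had a WT site and 41.9% a dKO site within 1 kb of a TSS, so the members did not stand apart. *Pdcd1*, *Lag3*, *Cd244* and *Havcr2* had no site there in either genotype. The nearest to one was a WT peak 3 bp upstream of the *Pdcd1* TSS, with a pileup of 21 fragments over the summit and a fold enrichment of 3.50, under the criteria.

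At the *Ctla4* promoter, 38 bp upstream of the TSS (chr1:60965676-60966028 in WT), the pileup was 91 fragments in WT and 58 in dKO, with percentiles 74.7 and 55.9. Pileups were compared as the ratio of dKO to WT after scaling to the fragments of each pool and centring on the median of all 20533 shared sites, which was 0.912 before centring (-0.13 on the log2 scale). For this promoter the centred ratio was 0.943 (95% counting interval 0.666 to 1.32), so no difference was detectable. In bulk cells, fewer cells with an open site and less opening per cell cannot be told apart. The *Tigit* promoter, 323 bp upstream of the TSS, was 555 bp wide in WT and 525 bp in dKO, and its pileups of 73 and 66 fragments gave a ratio of 1.34 (0.944 to 1.89). The interval again included 1.

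The *Cd160* promoter had the lowest ratio of dKO to WT signal among the shared promoter sites of the members. Its site 65 bp upstream of the TSS of transcript *Cd160*-001 (chr3:96618407-96618656) had 57 fragments in WT and 21 in dKO. The percentile went from 49.8 to 10.4, and the ratio was 0.545 (0.314 to 0.913), with an interval below 1. As printed above, its sequence holds the Tcf/Lef variant TTCAAAG on the minus strand 22 bp from the summit, with a Runx TGTGGT beside it. The other *Cd160* site, 1.64 kb into the gene in intron 1, had 56 and 39 fragments and a ratio of 1.03 (0.666 to 1.58).

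At *Btla* the promoter was covered by several sites that the lists resolved differently. A WT site 209 bp upstream of the TSS (chr16:45224161-45224289) had 81 fragments, a fold enrichment of 10.5 and percentile 66.8, and a weaker one 566 bp upstream had 31 fragments and percentile 0.588, and neither overlapped a dKO site. Another site, 0.549 kb into intron 1, was shared, with 44 fragments in WT and 38 in dKO and a ratio of 1.28 (0.805 to 2.02). The *Btla* promoter region was thus accessible in both genotypes, with its strongest WT summit not listed in dKO.

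The strongest signals of the loci lay away from the members' own promoters, some of them at promoters of other genes. The site 26.8 kb upstream of *Pdcd1* (chr1:95975761-95975954 in WT) had 138 fragments in WT and 97 in dKO, percentile 97.7 in each list, and a ratio of 1.04 (0.794 to 1.36). Its summit lies 8 bp from the letters of the CTCF motif, a protein that marks chromatin loop anchors and insulators. The 3 other *Pdcd1* sites gave ratios of 0.579 (0.316 to 1.02) at 39.5 kb upstream, 0.721 (0.516 to 0.997) at 2.74 kb beyond the 3′ end and 1.54 (1.0 to 2.38) at 3.21 kb beyond it. These last sites are neighbours with centred ratios on opposite sides of 1, and each interval has an end close to 1. Without the centring, the interval of the site 3.21 kb beyond the 3′ end includes 1, and that of the site 39.5 kb upstream lies below 1.

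Several strong sites in the windows stood at the promoters of other genes. The *Cd244* site 48.2 kb downstream of the TSS, with 139 fragments in WT and 76 in dKO and percentiles 98.1 and 88.1, lies 7 bp inside exon 1 of *Ly9*, another SLAM family gene, and its ratio was 0.809 (0.603 to 1.08). The strongest *Havcr2* site in both lists, 18.0 kb upstream (109 and 67 fragments, ratio 0.909, 0.660 to 1.24), lies 1 bp from a TSS of *Med7*, a Mediator subunit. The strongest *Lag3* site in WT, 19.7 kb upstream (112 and 58 fragments, ratio 0.766, 0.548 to 1.06), lies 7 bp from the TSS of *Mlf2*. On the centred scale none of these intervals excluded 1. Without the centring, those at the *Ly9* and *Mlf2* promoters lie below 1, and the one at *Med7* includes 1. The *Lag3* site nearest to the gene, 0.618 kb beyond its 3′ end, had 75 fragments in WT and 59 in dKO, was the strongest *Lag3* site in dKO at percentile 88.9, and again had CTCF letters 7 bp from its summit (ratio 1.16, 0.813 to 1.66). *Cd244* itself had 2 sites in intron 1, 5.28 and 7.85 kb from the TSS, with ratios of 1.37 (0.843 to 2.2) and 1.39 (0.966 to 2.0).

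Over the 30 shared sites, 12 had the higher centred signal in WT and 18 in dKO, with a median log2 ratio of 0.13 (interval of the median over these sites -0.14 to 0.43). With pileups scaled to fragments alone, which drops the centring, the division was 15 and 15. On the centred scale, the counting interval lay wholly on the WT side at 4 sites, against 5.39% of all shared sites. It lay wholly on the dKO side at 4, against 7.56%. This balance depends on the centring. Without it, intervals at further sites lie wholly on the WT side. They are those 39.5 kb upstream of *Pdcd1*, 19.7 kb upstream of *Lag3* and 48.2 kb downstream of the *Cd244* TSS. On the dKO side only the interval of the site 27.3 kb upstream of *Btla* then remains. The shares of all shared sites were not computed on that scale. A centred ratio of at least 2 in favour of WT was seen at 1 of the 30 sites, against 0.75% of all shared sites, and in favour of dKO at 0 of 30, against 1.51%.

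**Figure D3:**
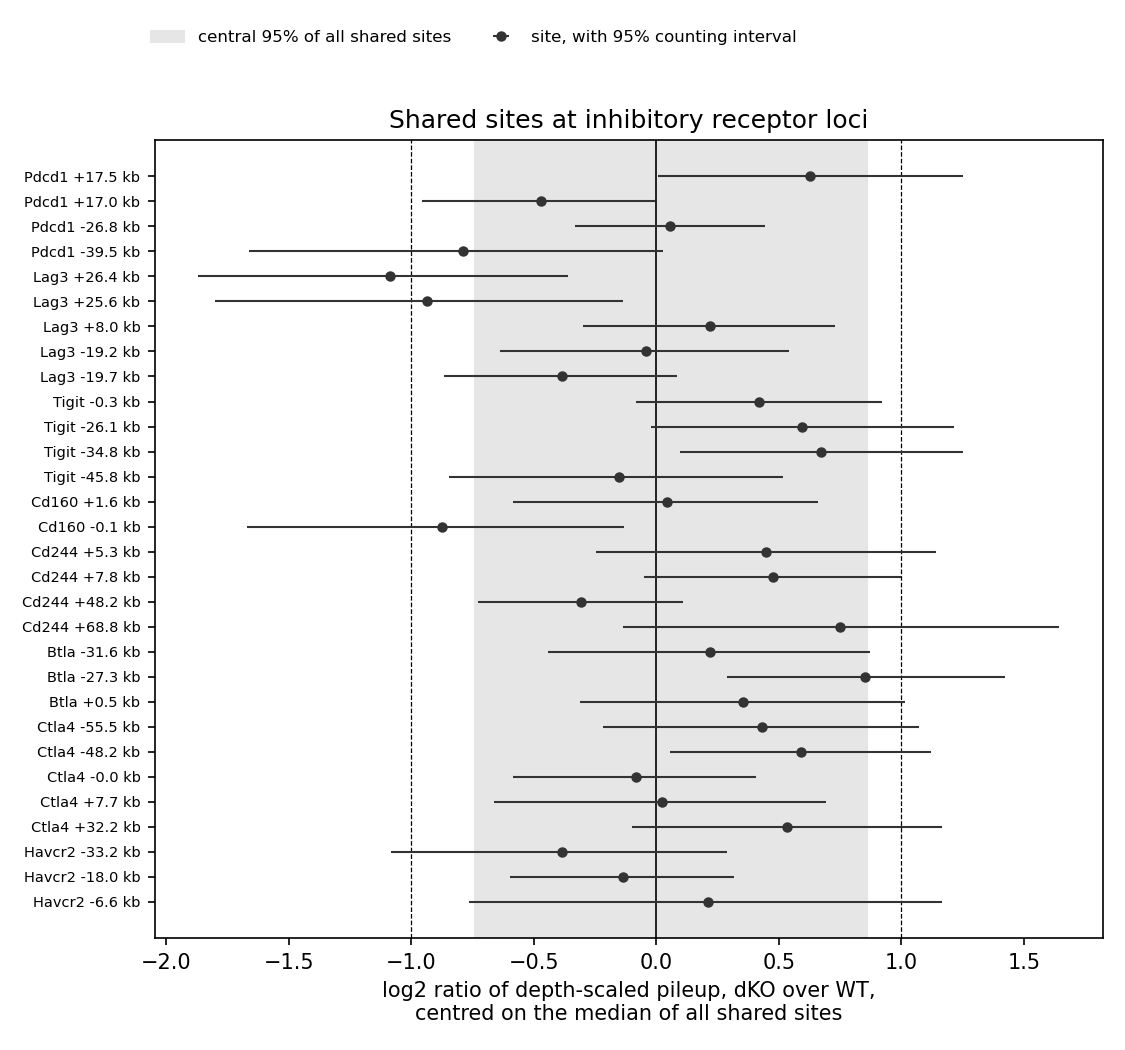
log2 ratio of depth-scaled pileup in dKO over WT, centred on the median of all shared sites (x axis), for the 30 shared sites (y axis, distance from the TSS of the named gene). Points carry 95% counting intervals, dashed lines mark a ratio of 2 in either direction, and the grey band from -0.74 to 0.86 holds the central 95% of all shared sites. The point farthest to the left is the *Lag3* site 26.4 kb downstream at -1.09.

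The site past that ratio, 26.4 kb downstream of the *Lag3* TSS (chr6:124835205-124835471), had 66 fragments in WT and 21 in dKO. Its percentile went from 47.3 to 14.1 and its ratio was 0.471 (0.274 to 0.779). A neighbour 25.6 kb downstream had 51 and 18 fragments, percentiles 28.1 and 5.39, and a ratio of 0.522 (0.287 to 0.909). Both sites lie in intron 1 of *Cd4*, the gene next to *Lag3*, 2.89 and 2.14 kb from the TSS of *Cd4*, whose promoter had no site in either list. The intron 1 region of *Cd4* is known for a silencer that Runx proteins bind in CD8+ T cells. The first of the pair holds the Tcf/Lef core ATCAAAG on the minus strand, 29 bp from its summit, and the second holds TGTGGT 4 times within 100 bp of its summit.

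Signals that were higher in dKO were smaller in ratio. The site 27.3 kb upstream of *Btla* (chr16:45196967-45197190) had 50 fragments in WT and 61 in dKO, with percentiles 52.9 and 71.4. Its ratio of 1.80 (1.22 to 2.68) was the highest of the 30, and CTCF letters lie 4 bp from the WT summit. The site 34.8 kb upstream of *Tigit* (51 and 55 fragments, ratio 1.60, 1.07 to 2.38) and the one 48.2 kb upstream of *Ctla4* (61 and 62 fragments, ratio 1.50, 1.04 to 2.18) also had intervals above 1. Dropping the centring multiplies each ratio and interval by 0.912. The lower ends at these *Tigit* and *Ctla4* sites then fall under 1, and the one at the *Btla* site does not. The *Ctla4* site was the strongest of its locus in dKO, at percentile 85.2 against 64.5 in WT. At *Btla* all 3 shared sites were higher in dKO on the centred scale, and at *Ctla4* 4 of 5. Without the centring all 3 *Btla* sites were still higher in dKO, but 3 of 5 at *Ctla4*.

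Sites found in 1 list only can be missing from the other for lack of depth, so each was set against what the other pool could show. The expected pileup is the site's own pileup scaled to the other pool and to the median ratio of shared sites, and the needed pileup is the one at which the criteria would have been met at the local background. Of the 13 sites in the WT list only, 9 were expected at or above the needed dKO pileup and 4 below it. All 9 sites in the dKO list only were expected at or above the needed WT pileup. Among sites expected at 2 times the needed pileup or more, the loci had 12 in WT, of which 2 were not in the dKO list, against 8.89% of all such WT sites. They had 21 in dKO, of which 1 was not in the WT list, against 6.01% of all such dKO sites. No dKO-only site of the loci reached 3 times the needed WT pileup, a margin at which 2.4% of all dKO sites had no WT site. MACS2 lists no peak narrower than its fragment length (98 bp in WT and 97 bp in dKO), so a region missing from a list is not shown to be closed.

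**Figure D4:**
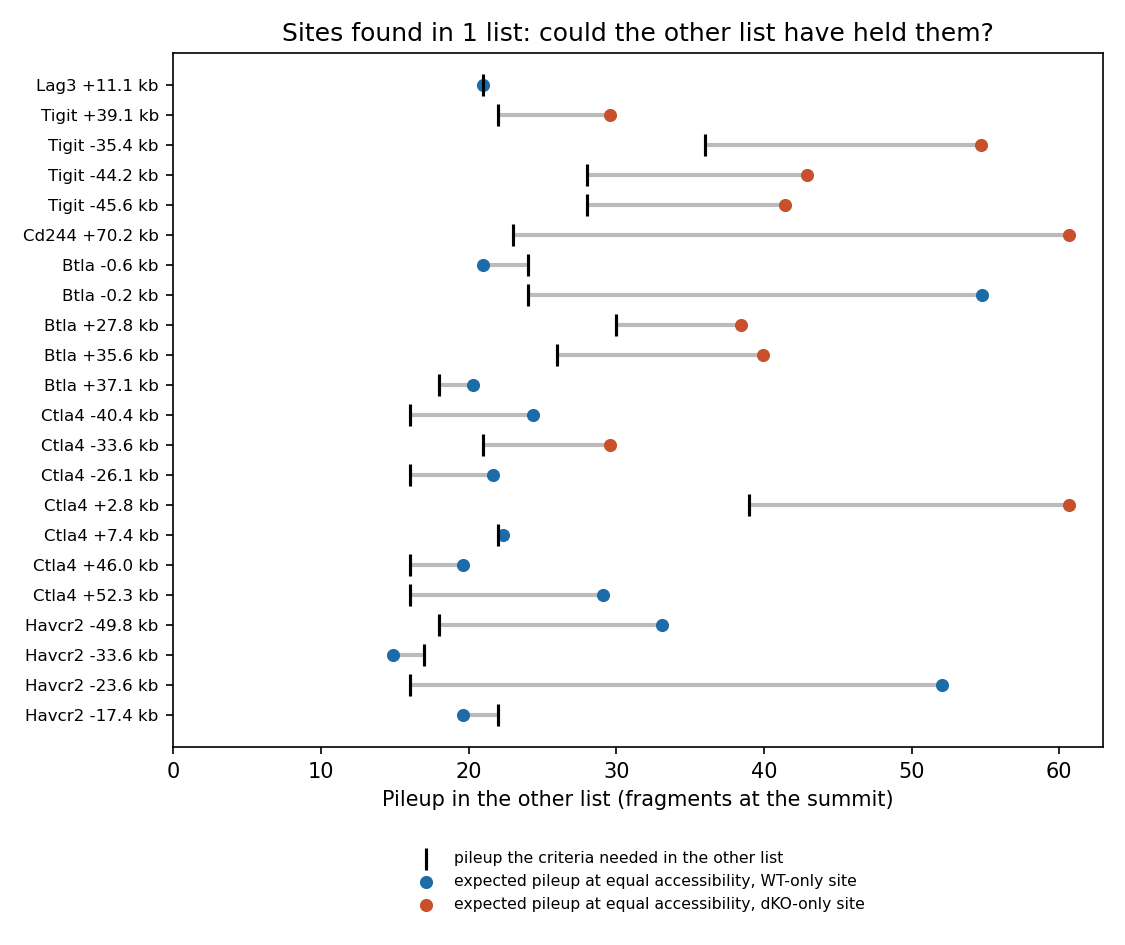
For each of the 22 sites found in 1 list only (y axis), the pileup in fragments (x axis) expected in the other list at equal accessibility (points, coloured by list) and the pileup that the criteria needed there (ticks). The point of the *Havcr2* site 23.6 kb upstream lies at 52.1 against a tick at 16, and 4 points lie below their ticks.

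The clearest of these was the WT site 23.6 kb upstream of *Havcr2* (chr11:46244723-46244955). It had 77 fragments, a fold enrichment of 14.5 and percentile 88.7, and in the dKO pool 52.1 fragments were expected where 16 would have met the criteria. No dKO peak, even under the criteria, was deposited there. Among all WT sites expected at 3 times the needed pileup or more, 2.72% had no dKO site. The letters of the CTCF motif begin 2 bp from the summit. Of all WT sites that hold these letters 69.2% were shared, and of those in the highest 10% by fold enrichment, just above the rank of this site, 96.7% were.

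The other *Havcr2* sites in the WT list only were weaker. One at 49.8 kb upstream (chr11:46218537-46218917) had 49 fragments and percentile 50.6, with 33.1 expected in dKO against 18 needed. Its summit lies in exon 1 of *Fam71b*, 423 bp from the TSS of that gene and 218 bp inside the edge of the window, and has the Tcf/Lef variant TTCAAAG 2 times within 100 bp. The remaining ones, 33.6 and 17.4 kb upstream, had 22 and 29 fragments, ranked at percentiles 1.86 and 0.839 and were expected below the needed dKO pileup (14.9 against 17 and 19.6 against 22). Of all WT sites expected below the needed dKO pileup, 66.3% had no dKO site, so a difference at these sites was not detectable at this depth. The 3 shared *Havcr2* sites had ratios from 0.766 to 1.16, all with intervals that included 1.

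The *Btla* promoter summit 209 bp upstream was the other WT site with a large margin, expected at 54.8 fragments in dKO against 24 needed. *Ctla4* had 3 WT-only sites above percentile 25. The one 40.4 kb upstream (36 fragments, percentile 34.8, 24.3 expected against 16 needed) has CTCF letters at its summit. The one 26.1 kb upstream (32 fragments, percentile 26.5, 21.6 against 16) holds the variant TTCAAAG and, 64 bp from the summit and outside the printed bases, the core ATCAAAG. These distances run to the TSS of *Ctla4*-001, and another annotated *Ctla4* TSS lies 18377 and 4041 bp from these sites. The one 52.3 kb downstream of the TSS (43 fragments, percentile 47.6, 29.1 against 16) lies 16.6 kb from a TSS of *Icos*. For WT sites with a margin of 1 to 2 times, 38.2% of the whole list had no dKO site. The WT-only *Lag3* site 11.1 kb downstream of the TSS (31 fragments, percentile 8.86) was expected at 21.0 fragments against 21 needed.

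Among the sites in the dKO list only, the strongest was 70.2 kb downstream of the *Cd244* TSS (chr1:173559361-173559597). It had 41 fragments and percentile 54.9, and 60.6 fragments were expected in WT against 23 needed. It lies between *Ly9* and *Slamf7*, 19.6 kb from the TSS of *Slamf7*, and a shared site 68.8 kb downstream of *Cd244* had 22 fragments in WT and 25 in dKO (ratio 1.68, 0.910 to 3.13). The dKO-only site in intron 1 of *Ctla4*, 2.77 kb from the TSS (chr1:60968592-60968733), had 41 fragments and percentile 18.1, with 60.6 expected in WT against 39 needed. It was the only site in the lists inside an intron of transcript *Ctla4*-001.

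The 4 dKO-only sites of *Tigit* were all of low rank, between percentiles 7.36 and 17.6, with 20 to 37 fragments. The highest-ranked one, 44.2 kb upstream (chr16:43708412-43708601), had 29 fragments where 42.9 were expected in WT against 28 needed, and a WT peak of 24 fragments with a fold enrichment of 3.59, under the criteria, was deposited at the same place. Those 35.4 and 45.6 kb upstream stand beside shared sites, and with gaps of up to 100 bp allowed only 2 of the 4 remained in the dKO list only. The fourth, 39.1 kb downstream of the TSS (percentile 7.36), lies in an exon of *Zbtb20*. The dKO-only sites of *Btla* were 1 in exon 6 (26 fragments, percentile 6.61) and 1 at 6.99 kb beyond the 3′ end (27 fragments, percentile 17.3). Of all dKO sites expected at 1 to 2 times the needed WT pileup, 30.4% had no WT site.

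Tcf/Lef letters were present at few of the sites. The core ATCAAAG was found within 100 bp of the summit at 4 of the 52, of which 2 were shared (the *Cd4* intron 1 site of the *Lag3* window and the *Ctla4* promoter), 2 were in the WT list only (26.1 kb upstream of *Ctla4* and 37.1 kb downstream of the *Btla* TSS) and 0 in the dKO list only. The variant TTCAAAG was found at 4, of which 1 was shared, 3 were in the WT list only and 0 in the dKO list only. In the WT list 9.30% of the loci's sites held the core (3.68% to 21.6%), against 3.81% of all WT sites, and in the dKO list 5.13% (1.42% to 16.9%) against 2.42%. Both intervals include the share of the whole list. Runx letters TGTGGT stood at 15 of the 52 sites. In WT 27.9% of the loci's sites held them (16.7% to 42.7%), against 21.8% of all WT sites. In dKO 38.5% held them (24.9% to 54.1%), against 23.2% of all dKO sites, and this was the only interval among the 7 motifs and both lists that did not include the share of the whole list, with no adjustment for the number of motifs. It also depends on the summit used. The dKO shares take dKO summits, while the counts over the 52 sites take WT summits at shared sites. By the latter, 10 of 30 shared and 3 of 9 dKO-only sites held the Runx letters. No interval was computed for that count. CTCF letters were at 9 (18.6% against 16.8%, and 17.9% against 16.5%), the Ets letters AGGAAGT at 7, AP-1 at 5 and the NFAT letters TGGAAAA at 2. A match of letters describes the sequence and is not a binding site.

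Around the receptors, the other genes of the pathway were accessible too. Within 50 kb of 20 genes grouped as ligands, activating partners and signalling proteins, there were 130 WT and 103 dKO sites, of which 37 (28.5%) and 10 (9.71%) were in 1 list only. Over the whole lists these shares were 27.6% and 14.4%. The WT share of the pathway genes was near that of the whole list, and their dKO share, from 10 sites, was lower. No interval was computed for these shares, so they are not read as a difference. Promoter sites were found at 14 of the 20 genes in WT and 13 in dKO. Across all protein-coding genes the shares were 45.0% and 41.9%. The 11 ligand genes, among them *Cd274* for PD-L1 and *Pvr* for a TIGIT ligand, had 63 WT and 50 dKO sites. Of these, 17 (27.0%) and 3 (6.0%) were in 1 list only. The 4 genes grouped as activating partners, *Cd28*, *Icos*, *Cd226* and *Cd96*, had 32 and 22 sites, 13 (40.6%) and 4 (18.2%) of them in 1 list only. *Cd96*, whose role as an activating receptor was not examined, gave 11 of the WT and 9 of the dKO sites. The 4 genes share 3 WT sites and 1 dKO site with the windows above. The 5 signalling genes, such as *Ptpn6* for the phosphatase SHP-1, had 35 and 31 sites, 7 and 3 of them in 1 list only.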

How the data were processed

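DNase-seq of naïve CD8+ T cells (3 WT and 2 dKO replicates) was analysed from the deposited peak lists. Per the methods and the submitters' notes, the authors checked reads with FastQC, aligned them to mm9 with Bowtie2 2.2.5, kept uniquely mapped reads, pooled replicates per genotype and called peaks with MACS2 2.1.1 without a control library. The deposited pileup is a signal, the fragments over the summit, not scaled to depth. The deposited fold enrichment is a ratio of that pileup to the pool's own local background, and the authors' MACS2 values of −log10 p and −log10 q were used as thresholds. The file headers name 2 input alignments per list, the second called a sorted version of the first, and 83923734 of 167847468 WT and 62242963 of 124485926 dKO fragments were kept after duplicates were removed, which sets the precision.

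Peaks were assigned to loci by their summits with the gencode annotation of mm9, and distances run to the TSS of transcript 001, or of the longest transcript. Centred ratios used pairs of sites that were each other's best overlap, with exact binomial intervals. Wilson intervals were used for shares. Sites named singly were promoter sites, the strongest site per locus and list, sites in 1 list only at percentile 25 or above or highest of their locus, and shared sites past a ratio of 2. Others named for their position or interval, and the CTCF letters, were chosen after their values were seen. The members and lists were chosen with earlier results of these data known. Overlaps and ratios were tested on simulated data. Python 3.11.15, numpy 2.4.6, pandas 2.3.3, scipy 1.17.1, pysam 0.24.0 and matplotlib 3.10.9 were used. Alternatives were stricter and looser criteria, other windows, overlaps and scalings. A marker gene and a sequence are not reported here.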

Additional observations from a re-analysis of the deposited data

How the results depend on the processing

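No paired analysis was possible because the replicates of each genotype were pooled before peaks were called, and for the same reason no replicate could be left out. Requiring a fold enrichment of at least 8 left 23 WT and 18 dKO sites in the loci, and a window of 10 kb left 18 and 15. The number of shared sites at least 2 times higher in WT was 0 with that fold enrichment, with q under 1e-10, with the 20000 highest peaks per list, with the 10 kb window, with a window ending at the gene's 3′ end, and with fold enrichment in place of pileup, and it was 3 with pileups scaled to fragments alone. The core ATCAAAG stood within 50 bp of the summit at 1 site. The percentile difference dKO minus WT changed sign at the intron 1 sites of *Cd160* (8.07, but -5.46 by pileup) and *Btla* (-2.24, but 9.09 by pileup and 3.42 by −log10 p). The share of WT sites in the WT list only ranged from 27.6% to 39.1%, and that of dKO sites in the dKO list only from 17.9% to 25%. Over the whole lists the same settings gave 19.7% to 30.1% for WT and 11.1% to 18.9% for dKO. With a fold enrichment of at least 8, the WT share was 39.1% in the loci and 25.9% over the whole list. The causes were not tested. *Havcr2* kept 2 to 4 sites in the WT list only and 0 in the dKO list only under every alternative but the 10 kb window, where both were 0. *Tigit* had 1 to 4 in the dKO list only, and 0 with the 10 kb window. With the lists as deposited *Tigit* also had 1 in the WT list only, and so did *Pdcd1*. *Pdcd1* and *Cd160* each had 1 in the WT list only with a fold enrichment of at least 8. The same held with q under 1e-10 and with the 20000 highest peaks. In the last of these *Pdcd1* also had 1 in the dKO list only. Of the other values of single sites under an alternative, 50 stayed within 1.5 times the reported value and 22 moved further with the same direction. Depth limits most the 4 sites in the WT list only that were expected below the needed dKO pileup.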

Other observations

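Sites just beyond the windows were looked up as a check of their edges. A shared site 5.73 kb beyond the *Havcr2* window, on the side of *Fam71b* (chr11:46212560-46212933 in WT), stood at percentile 78.6 in WT and 29.2 in dKO. Beyond the *Cd244* window, a shared site 5.73 kb past the upstream edge stood at percentile 71.1 in WT and 52.3 in dKO, and a dKO-only site 6.63 kb past that edge stood at percentile 26.6. A site 8.50 kb past the downstream edge (chr1:173573811-173574116) had 116 fragments and percentile 93.5 in WT and 104 fragments and percentile 98.6 in dKO. This last site was shared as well. These values were seen before they were chosen, and no test between the pools was possible.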
